A study of Homo sapiens with 41 samples.

Results

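Syndecans and glypicans are the cell-surface core proteins that carry heparan sulfate chains, and 8 of their genes were followed here: SDC1 (ENSG00000115884), SDC2 (ENSG00000169439), SDC3 (ENSG00000162512), SDC4 (ENSG00000124145), GPC1 (ENSG00000063660), GPC2 (ENSG00000213420), GPC4 (ENSG00000076716) and GPC6 (ENSG00000183098). They were chosen by name, by pairing the Ensembl identifiers of the count files with gene symbols, and are 8 of 58735 genes counted. RNA was sequenced from 2 human cell lines: LX-2, an immortalised hepatic stellate cell line used as a model of the liver cells that lay down scar matrix, and HMLE, an immortalised mammary epithelial line. Each line carried either a short hairpin labelled shATF4, against the stress-response transcription factor ATF4, or a control hairpin labelled shCtrl. LX-2 cells of each hairpin were treated with TGFbeta (a cytokine that activates stellate cells), with thapsigargin (an inhibitor of the calcium pump of the endoplasmic reticulum), with the condition labelled AA_Dep, or with DMSO, the solvent control. HMLE cells of each hairpin carried Twist_OE, or were given thapsigargin, AA_Dep or DMSO. The label Twist_OE names a Twist transcription factor and does not say which TWIST gene. No dose, duration or number of hairpins is given in the labels, every group carries a hairpin, and the labels do not say whether the Twist_OE cells were also given DMSO. Each of the 16 groups had 2 samples, 32 in all, and nothing in the labels says whether the 2 came from separate cultures, so p-values measure the spread between these samples, which may be technical.

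Syndecans span the plasma membrane and have short cytoplasmic tails, whereas glypicans are tethered to the outer leaflet by a glycosylphosphatidylinositol anchor. The heparan sulfate chains of both bind growth factors, chemokines and matrix proteins and present them to their receptors, and the ectodomains can be shed from the cell surface. SDC1 is the main syndecan of epithelia, SDC2 that of mesenchymal cells, SDC3 is best known from the nervous system, and SDC4 is widely expressed and takes part in focal adhesions. GPC1 is a broadly expressed co-receptor for fibroblast growth factors, GPC2 is best known from the developing nervous system, and GPC4 and GPC6 are related glypicans of growth-factor and Wnt signalling.

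The promoter windows of SDC1, SDC3 and GPC6 are shown, which are among the genes that moved in HMLE cells with Twist_OE, and TWIST proteins bind E-boxes. SDC4 and GPC1 also moved there, and their windows, which held no E-box, are not shown. The windows were taken from RefSeq (GRCh38.p14) and run 5′ to 3′ on the gene's strand over 300 bases, 250 before and 50 after the annotated start. Capitals mark each E-box, searched as CANNTG, which reads the same on both strands.
SDC1, chr2:20225426-20225725, minus strand: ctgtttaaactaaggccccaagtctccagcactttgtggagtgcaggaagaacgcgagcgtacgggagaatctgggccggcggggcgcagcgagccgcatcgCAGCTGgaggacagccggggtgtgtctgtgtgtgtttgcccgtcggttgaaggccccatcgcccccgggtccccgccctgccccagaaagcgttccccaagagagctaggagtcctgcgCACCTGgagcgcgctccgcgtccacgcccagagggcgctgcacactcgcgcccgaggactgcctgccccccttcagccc
SDC3, chr1:30908709-30909008, minus strand: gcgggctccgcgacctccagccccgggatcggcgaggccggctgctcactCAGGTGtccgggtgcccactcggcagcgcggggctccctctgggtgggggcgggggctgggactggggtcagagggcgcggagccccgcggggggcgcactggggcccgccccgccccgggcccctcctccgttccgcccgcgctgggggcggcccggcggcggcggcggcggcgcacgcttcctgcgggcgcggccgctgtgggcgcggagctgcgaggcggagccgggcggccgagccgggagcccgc
GPC6, chr13:93226557-93226856, plus strand: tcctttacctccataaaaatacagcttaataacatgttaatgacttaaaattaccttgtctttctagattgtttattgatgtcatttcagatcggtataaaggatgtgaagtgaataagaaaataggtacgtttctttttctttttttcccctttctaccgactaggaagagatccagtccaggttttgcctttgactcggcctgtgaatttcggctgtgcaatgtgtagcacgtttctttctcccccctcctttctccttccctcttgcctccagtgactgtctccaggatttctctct
The SDC1 window shown held 2 E-boxes, the SDC3 window 1 and the GPC6 window 0, and 68.7% of 35116 promoter windows of this length held at least 1. RefSeq windows were found for 7 of the 8 genes, all but SDC2, and SDC1 has a second window that held no E-box. The window of GPC2, which did not pass with Twist_OE, held 2 E-boxes, and those of SDC4, GPC1 and GPC4 none. The sequence CATCTG, a form of the E-box searched on both strands, was found among these windows in GPC2 and in 14.7% of all. The element TGATGNAA, to which ATF4 binds with C/EBP proteins, was found on neither strand of any window of these genes, and 3.62% of all windows held it. These are matches of letters and not binding sites.

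The libraries held 14551191 to 18776430 counts in LX-2 and 15956909 to 23243132 in HMLE. The library of LX-2 shCtrl thapsigargin replicate 2 stood apart. Only 15840 genes had a count in it, whereas the remaining LX-2 libraries had 22912 to 24255, and its correlation with its own replicate was 0.927 on the log2(CPM + 1) scale, against 0.996 to 0.998 in the other LX-2 pairs. It was left out of the fits, and results are also given with it. The 2 files of HMLE shATF4 AA_Dep were identical and were counted as 1 library. ATF4 was lower with shATF4 in all 8 comparisons of hairpins, by log2 changes of -0.91 ± 0.10 (SE, LX-2 DMSO) to -2.78 ± 0.07 (HMLE AA_Dep), which matches the labels. In LX-2 shATF4 cells it still stood at 210 to 233 CPM with thapsigargin and 235 to 240 CPM with AA_Dep. In LX-2 shCtrl DMSO it stood at 226 to 245 CPM. TWIST1 stood at 119 and 137 CPM (the count divided by the library's total, times 1000000) in HMLE shCtrl Twist_OE, against 16.8 and 16.3 CPM in shCtrl DMSO. In shATF4 cells with Twist_OE, TWIST1 stood at 29.9 and 31.2 CPM, a log2 change of -2.09 ± 0.11 against shCtrl cells with Twist_OE (adjusted p = 4.1e-12, edgeR). Whether TWIST1 reads come from an introduced gene or from the cells' own is not given in the labels. COL1A1 and VIM were detected in all libraries of both lines. COL1A1 was at 324 to 15300 CPM in LX-2 and at 8.24 to 1210 CPM in HMLE. VIM was at 1070 to 2380 CPM and at 3.44 to 802 CPM. LUM and DCN went the other way, reaching 1.08 and 1.01 CPM in LX-2 and 102 and 75.1 CPM in HMLE. DES, a stellate cell marker, was at 0 in 11 of the 16 LX-2 libraries. EPCAM, CDH1 and KRT5 were detected in all HMLE libraries, and KRT5 was at 0 in 15 of the 16 LX-2 libraries. The epithelial markers KRT18 (123 to 683 CPM) and LAMB3 (42.1 to 116 CPM) were detected in all LX-2 libraries. The hepatocyte markers ALB, APOA1 and TTR summed to at most 0.721 CPM in any library.

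In DMSO and with the control hairpin, the 2 lines differed in all 7 of the genes that could be tested, SDC2, SDC3, GPC1, GPC2 and GPC6 being higher and SDC1 and SDC4 lower in LX-2. In this comparison 70.4% of all 20308 genes tested passed the threshold (adjusted p of 0.05, edgeR quasi-likelihood test with Benjamini-Hochberg adjustment over all genes, used throughout), so a call in itself says little about these genes. Counts here are not divided by transcript length, so levels are compared between samples and never between genes. SDC3 stood at 165 and 181 CPM in LX-2, against 2.78 and 2.84 CPM in HMLE, a log2 difference of 5.75 ± 0.13 (SE). SDC2, the mesenchymal syndecan, had 633 and 705 counts in the LX-2 libraries, against 1 and 0 counts in the HMLE libraries. The ratio of their summed levels was 1550, with a 95% counting interval of 278 to 61300. GPC2 was at 6.62 and 7.46 CPM in LX-2 and at 0.441 and 0.635 CPM in HMLE, a log2 difference of 3.51 ± 0.29. GPC1 was at 685 and 758 CPM in LX-2 and at 381 and 378 CPM in HMLE (0.73 ± 0.08), and GPC6 at 6.94 and 4.70 CPM and at 2.69 and 2.00 CPM (1.11 ± 0.25). The epithelial syndecan SDC1 was at 183 and 210 CPM in LX-2, against 502 and 495 CPM in HMLE, a log2 difference of -1.53 ± 0.09. SDC4 was at 209 and 229 CPM in LX-2, against 317 and 323 CPM in HMLE (-0.74 ± 0.07). For none of the 7 did the 2 pairs of libraries overlap. The share of all genes without overlap was not counted, here or in the comparisons below. GPC4 had 0 counts in all 16 LX-2 libraries, which allows up to 0.0107 CPM over the line, and 5 counts over the 15 HMLE libraries. It did not pass the filter on low counts in either line and was not tested. Scaling by library totals in place of TMM shifts all log2 differences between the lines by 0.19 and turned no sign here.

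**Figure D1:**
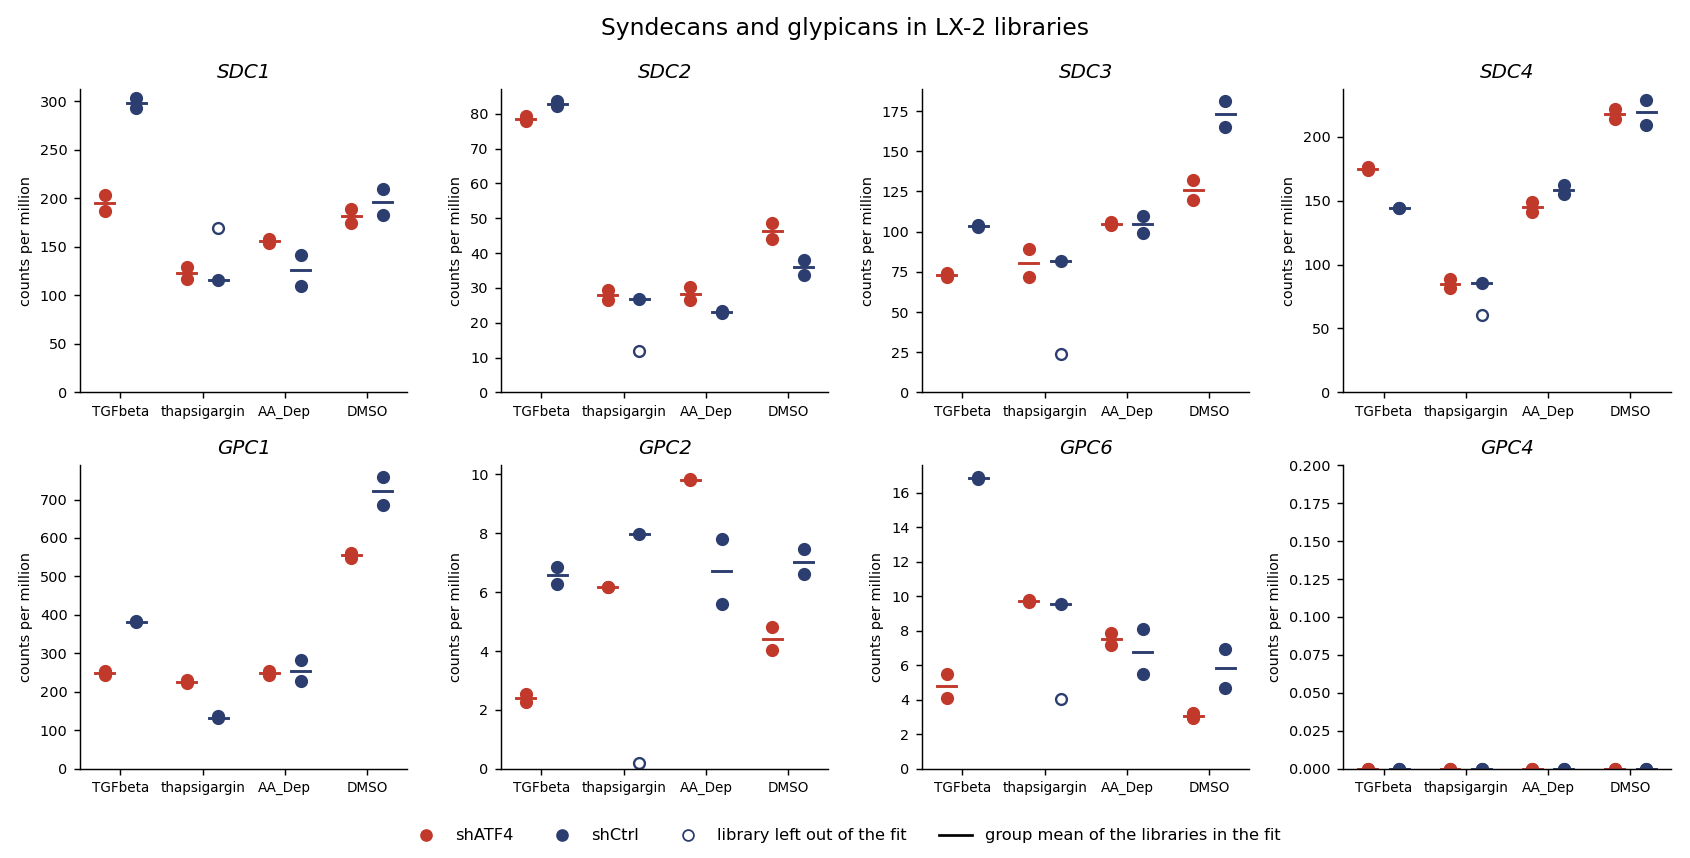
CPM of each gene (y axes, each panel with its own scale from 0) in the 16 LX-2 libraries, by condition, with shATF4 libraries in red left of shCtrl libraries in blue; lines are means of the libraries used in the fits and the open circle is the library left out. SDC2 and GPC6 stand highest in shCtrl cells with TGFbeta, GPC1 stands highest in shCtrl DMSO at 685 and 758 CPM, and GPC4 is at 0 throughout.

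Over the 8 groups of LX-2, with all libraries, the ranges of neighbouring groups in the order of means overlapped in 5 of 7 neighbouring pairs for SDC1, 4 of 7 for SDC3, GPC2 and GPC6, 3 of 7 for SDC4, and 2 of 7 for SDC2 and GPC1. In HMLE they overlapped in 1 of 7 pairs for SDC1, SDC3, SDC4 and GPC1, 2 of 7 for SDC2, 4 of 7 for GPC2 and 5 of 7 for GPC6. GPC1 in LX-2 ran in descending order of group means through shCtrl DMSO (685 and 758 CPM), shATF4 DMSO (562 and 548 CPM), shCtrl TGFbeta (382 and 383 CPM), then 4 groups between 222 and 284 CPM, with shCtrl thapsigargin lowest at 132 and 136 CPM. Of those 4 groups, shCtrl AA_Dep overlapped shATF4 AA_Dep, which overlapped shATF4 TGFbeta, and shATF4 thapsigargin lay below shATF4 TGFbeta without overlap.

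TGFbeta moved 6 of the 7 tested genes in LX-2 shCtrl cells. SDC1, SDC2 and GPC6 rose, SDC3, SDC4 and GPC1 fell, and GPC2 did not pass, against 22.1% of all 18649 genes tested that passed. SDC2 stood at 83.6 and 82.3 CPM with TGFbeta, against 33.8 and 38.1 CPM in DMSO, a log2 change of 1.33 ± 0.10 (adjusted p = 9.8e-08). GPC6 was at 16.9 and 16.8 CPM with TGFbeta, against 6.94 and 4.70 CPM in DMSO (1.66 ± 0.20, adjusted p = 1.5e-05). SDC1 was at 303 and 293 CPM with TGFbeta, against 183 and 210 CPM in DMSO (0.73 ± 0.11). In all 3, both treated libraries lay above both DMSO libraries. GPC1, the fibroblast growth factor co-receptor, was at 382 and 383 CPM with TGFbeta, against 685 and 758 CPM in DMSO, a log2 change of -0.79 ± 0.09. SDC3 was at 104 and 103 CPM with TGFbeta, against 165 and 181 CPM in DMSO (-0.61 ± 0.10), and SDC4 at 144 CPM in both treated libraries, against 209 and 229 CPM in DMSO (-0.48 ± 0.08). These 3 lay below DMSO in both treated libraries. GPC2 gave 0.03 ± 0.18 (adjusted p = 0.94). With all 16 LX-2 libraries, the library that stands apart widens the spread of every group (biological coefficient of variation 29.5%, against 9.21% without it). Then 3.15% of all genes tested passed, and 2 of the 7. These were SDC2 (adjusted p = 0.0013) and GPC6 (adjusted p = 0.0056). Scaling by library totals shifts this comparison by -0.13 on the log2 scale and turned no sign among the 6 genes that passed. It turned that of GPC2, at a mean of 6.57 CPM with TGFbeta against 7.04 CPM in DMSO. The summed CPM of the 10 stellate and mesenchymal markers moved in the same libraries, at 44400 to 45200 with TGFbeta, against 12800 to 13400 in DMSO. Over the LX-2 libraries FN1 reached 22900 CPM and COL1A1 15300 CPM, so few of the 10 genes make up most of this sum. Whether the sum bears on the syndecans and glypicans was not tested. In bulk RNA, a change in the number of cells of a kind and a change in RNA per cell cannot be told apart.

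Thapsigargin and AA_Dep each lowered 5 of the 7 tested genes in LX-2 shCtrl cells, SDC1 to SDC4 and GPC1, and raised none. Of all genes tested, 40.5% passed for thapsigargin and 45.6% for AA_Dep. GPC1 fell farthest in both. It was at 132 CPM in the 1 thapsigargin library used and 136 CPM in the one left out, against 685 and 758 CPM in DMSO, a log2 change of -2.55 ± 0.13 (adjusted p = 4.5e-10), and of -2.0 ± 0.26 with both libraries (adjusted p = 0.00048). With AA_Dep it was at 284 and 227 CPM, a log2 change of -1.52 ± 0.09 against DMSO (adjusted p = 3.2e-09). SDC4, the focal adhesion syndecan, was at 85.4 CPM with thapsigargin and 60.9 CPM in the library left out, against 209 and 229 CPM in DMSO. Its log2 change was -1.46 ± 0.10, and -1.24 ± 0.17 with both libraries. SDC3 was at 81.6 CPM with thapsigargin and at 23.7 CPM in the library left out, against 165 and 181 CPM in DMSO (-1.18 ± 0.13, and -1.57 ± 0.24 with both). SDC2 was at 26.9 and, left out, 11.9 CPM, against 33.8 and 38.1 CPM in DMSO (-0.52 ± 0.13, and -0.66 ± 0.16 with both). These 3 genes stood below DMSO in each thapsigargin library. SDC1 was at 116 CPM, and at 169 CPM in the library left out, against 183 and 210 CPM in DMSO. Its log2 change was -0.87 ± 0.14 without that library and 0.03 ± 0.35 with it (adjusted p = 0.95). The sign of the fitted SDC1 change thus rests on whether that library is used. In CPM, both thapsigargin libraries lay below both DMSO libraries. With AA_Dep, SDC1 was at 142 and 110 CPM, SDC2 at 22.8 and 23.5 CPM, SDC3 at 110 and 99.3 CPM and SDC4 at 162 and 155 CPM, all below both DMSO libraries. The syndecans changed by -0.49 ± 0.08 (SDC4) to -0.74 ± 0.10 (SDC3). When all 16 libraries were used, 2 of the 7 genes, SDC2 and GPC1, passed with AA_Dep, where 13% of all genes did. GPC2 and GPC6 passed in neither condition. GPC6 gave 0.61 ± 0.25 with thapsigargin (adjusted p = 0.063) and 0.20 ± 0.21 with AA_Dep, and GPC2 gave 0.08 ± 0.22 and -0.09 ± 0.18. GPC2 had 137 counts in the thapsigargin library used and 3 in the one left out. The stellate and mesenchymal markers in the same libraries summed to 1850 to 3380 CPM with thapsigargin (the library left out included) and to 4360 to 4790 CPM with AA_Dep, against 12800 to 13400 CPM in DMSO, and their part in these changes was not tested. The 3 treatments share the DMSO libraries.

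**Figure D2:**
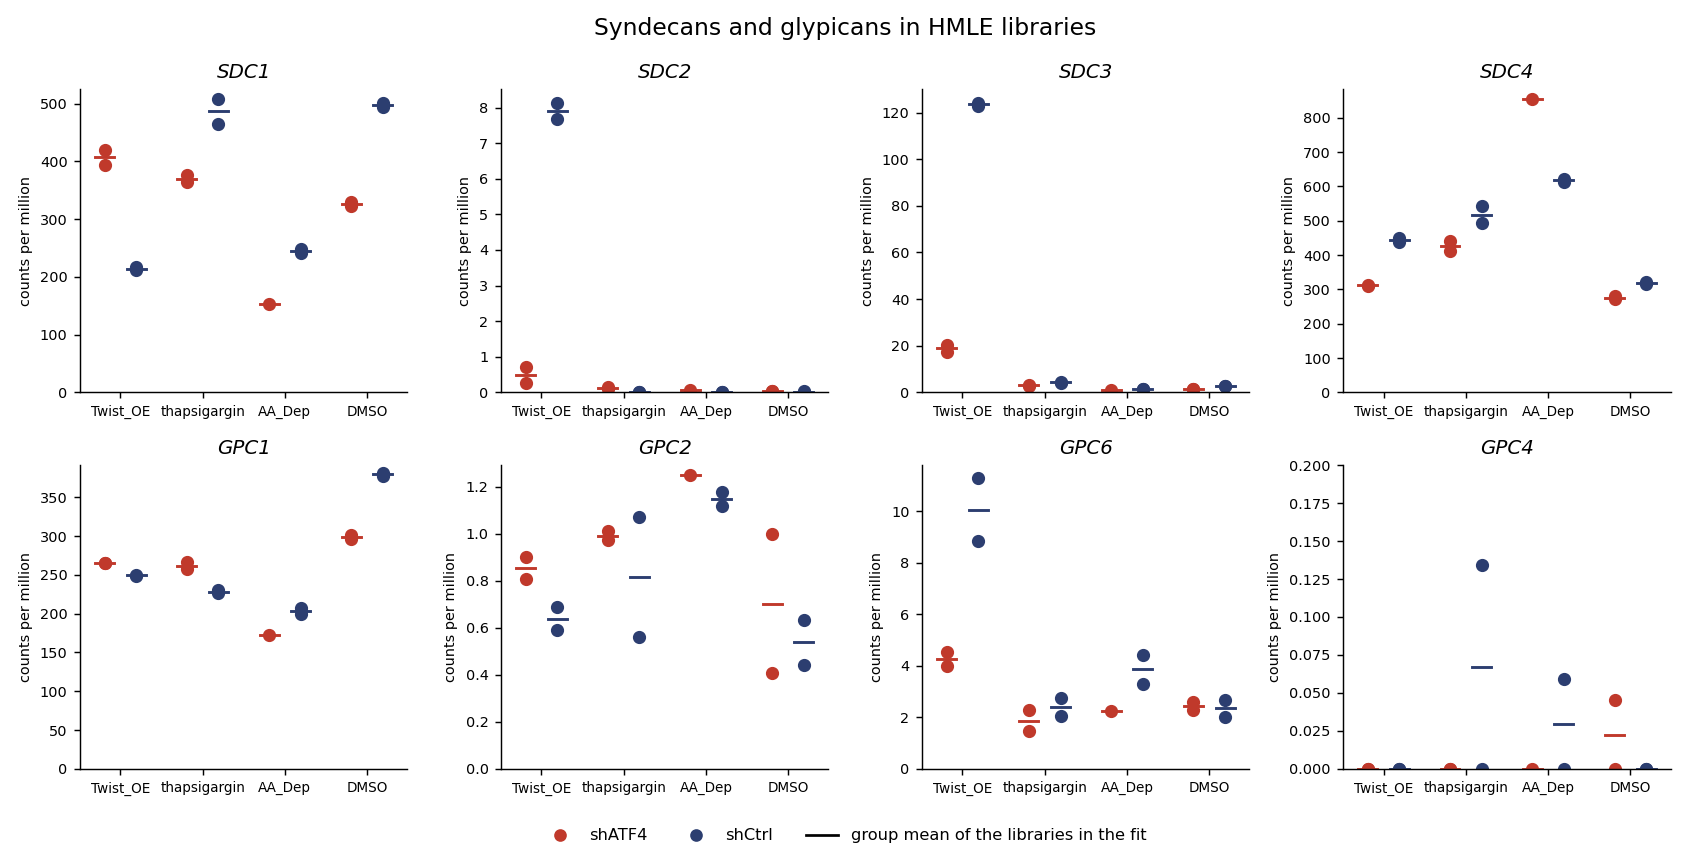
CPM of each gene (y axes, each panel with its own scale from 0) in the 15 HMLE libraries, by condition, with shATF4 libraries in red left of shCtrl libraries in blue; lines are group means. SDC2, SDC3 and GPC6 stand highest in shCtrl cells with Twist_OE, SDC3 at 123 and 124 CPM, and SDC4 stands highest in shATF4 cells with AA_Dep at 855 CPM.

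With Twist_OE, HMLE shCtrl cells had more SDC2, SDC3, SDC4 and GPC6 and less SDC1 and GPC1 than in DMSO. SDC3 stood at 123 and 124 CPM in shCtrl Twist_OE, against 2.78 and 2.84 CPM in shCtrl DMSO, a log2 change of 5.46 ± 0.11 (adjusted p = 1.5e-18). SDC2 had 165 and 168 counts (8.12 and 7.69 CPM) with Twist_OE, against 1 and 0 counts in DMSO. The ratio of summed levels was 341, with a 95% counting interval of 60.7 to 13500, and in the 11 HMLE libraries without Twist_OE the gene had 0 to 3 counts. GPC6 was at 11.3 and 8.84 CPM with Twist_OE, against 2.69 and 2.00 CPM in DMSO (2.10 ± 0.22, adjusted p = 1.2e-07). SDC4 was at 450 and 439 CPM, against 317 and 323 CPM in DMSO (0.49 ± 0.05). These 4 were higher in both Twist_OE libraries than in both DMSO libraries. SDC1, the epithelial syndecan, was at 217 and 212 CPM with Twist_OE, against 502 and 495 CPM in DMSO, a log2 change of -1.21 ± 0.05 (adjusted p = 7.4e-14), and GPC1 was at 250 and 249 CPM, against 381 and 378 CPM in DMSO (-0.59 ± 0.04). GPC2 gave 0.27 ± 0.48 and did not pass. In all, 4 of the 7 tested genes rose and 2 fell, where 57.2% of all 17940 genes tested passed. In the same libraries the 10 mammary epithelial markers summed to 1380 to 1390 CPM with Twist_OE, against 9150 to 9250 CPM in DMSO, none of the 10 being at 0 in any HMLE library. The 10 mesenchymal markers summed to 16100 to 19800 CPM, against 621 to 664 CPM in DMSO. FN1, 1 of the 10, ran from 391 to 16400 CPM over the HMLE libraries, so a single gene makes up much of this sum. Whether these genes moved with the change in those markers was not tested.

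In HMLE cells with the control hairpin, SDC4 was higher and GPC1 lower with thapsigargin and with AA_Dep than in DMSO. SDC4 was at 492 and 543 CPM with thapsigargin and at 612 and 623 CPM with AA_Dep, against 317 and 323 CPM in DMSO. Its log2 changes were 0.74 ± 0.05 (adjusted p = 8.2e-10) and 0.84 ± 0.05 (adjusted p = 4.9e-11). GPC1 was at 230 and 227 CPM with thapsigargin and at 199 and 207 CPM with AA_Dep, against 381 and 378 CPM in DMSO (-0.69 ± 0.04 and -1.02 ± 0.05). No treated library overlapped a DMSO library for either gene. SDC3 rose with thapsigargin, to 4.43 and 4.19 CPM, against 2.78 and 2.84 CPM in DMSO (0.66 ± 0.15), and fell with AA_Dep, to 1.62 and 1.53 CPM (-0.94 ± 0.19). SDC1 fell with AA_Dep, to 249 and 241 CPM, against 502 and 495 CPM in DMSO (-1.14 ± 0.05), and gave 0.01 ± 0.05 with thapsigargin, at 465 and 508 CPM. GPC6 gave 0.60 ± 0.25 with AA_Dep, at 3.30 and 4.42 CPM against 2.69 and 2.00 CPM in DMSO (adjusted p = 0.047). That call was lost without AA_Dep replicate 2 or without DMSO replicate 2 (adjusted p = 0.26 in each) and in DESeq2 (adjusted p = 0.072). Over the genes, 3 of 7 passed with thapsigargin, where 36.8% of all genes tested did, and 5 of 7 with AA_Dep, where 61.7% did. In the same libraries the epithelial markers summed to 13800 to 14100 CPM with thapsigargin and 12300 to 12600 CPM with AA_Dep, against 9150 to 9250 CPM in DMSO. The mesenchymal markers summed to 805 to 1000 CPM with thapsigargin and 4420 to 5060 CPM with AA_Dep, against 621 to 664 CPM in DMSO. The part of these markers in the changes was not tested. Scaling by library totals shifts the AA_Dep comparison by 0.11 on the log2 scale and turned no sign.

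The responses of the 2 lines were set against each other for the 2 conditions they share, a comparison added after the values had been seen. For thapsigargin, 4 of 7 genes differed, and 27.7% of all 20308 genes tested. The response of LX-2 minus that of HMLE was -2.22 ± 0.11 for SDC4 (adjusted p = 4.5e-14), -1.88 ± 0.12 for GPC1, -1.86 ± 0.20 for SDC3 and -0.89 ± 0.14 for SDC1. SDC4 and SDC3 thus fell in LX-2 and rose in HMLE, and GPC1 fell in both, farther in LX-2. With both LX-2 thapsigargin libraries the differences were -2.11 ± 0.16 for SDC4, -1.47 ± 0.24 for GPC1 and -2.31 ± 0.33 for SDC3, all passing, and -0.14 ± 0.34 for SDC1 (adjusted p = 0.85). For AA_Dep, 4 of 7 differed, and 40.3% of all genes. The difference was -1.35 ± 0.09 for SDC4, which fell in LX-2 and rose in HMLE (adjusted p = 1.4e-11), and -0.53 ± 0.11 for GPC1. It was 0.45 ± 0.13 for SDC1, which fell in both and less in LX-2, a call lost without LX-2 shCtrl AA_Dep replicate 1 (adjusted p = 0.099) or LX-2 shCtrl DMSO replicate 1 (adjusted p = 0.068). GPC2 gave -1.10 ± 0.44 (adjusted p = 0.049). It lost the call when any of 6 libraries of the 4 groups was left out (adjusted p of 0.052 to 0.19), in DESeq2 (adjusted p = 0.063) and without the filter on low counts (adjusted p = 0.072). With all 16 LX-2 libraries SDC4 alone passed (adjusted p = 4.8e-06), where 14.5% of all genes did. Scaling by library totals shifts the thapsigargin comparison by 0.16 on the log2 scale and turned no sign.

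**Figure D3:**
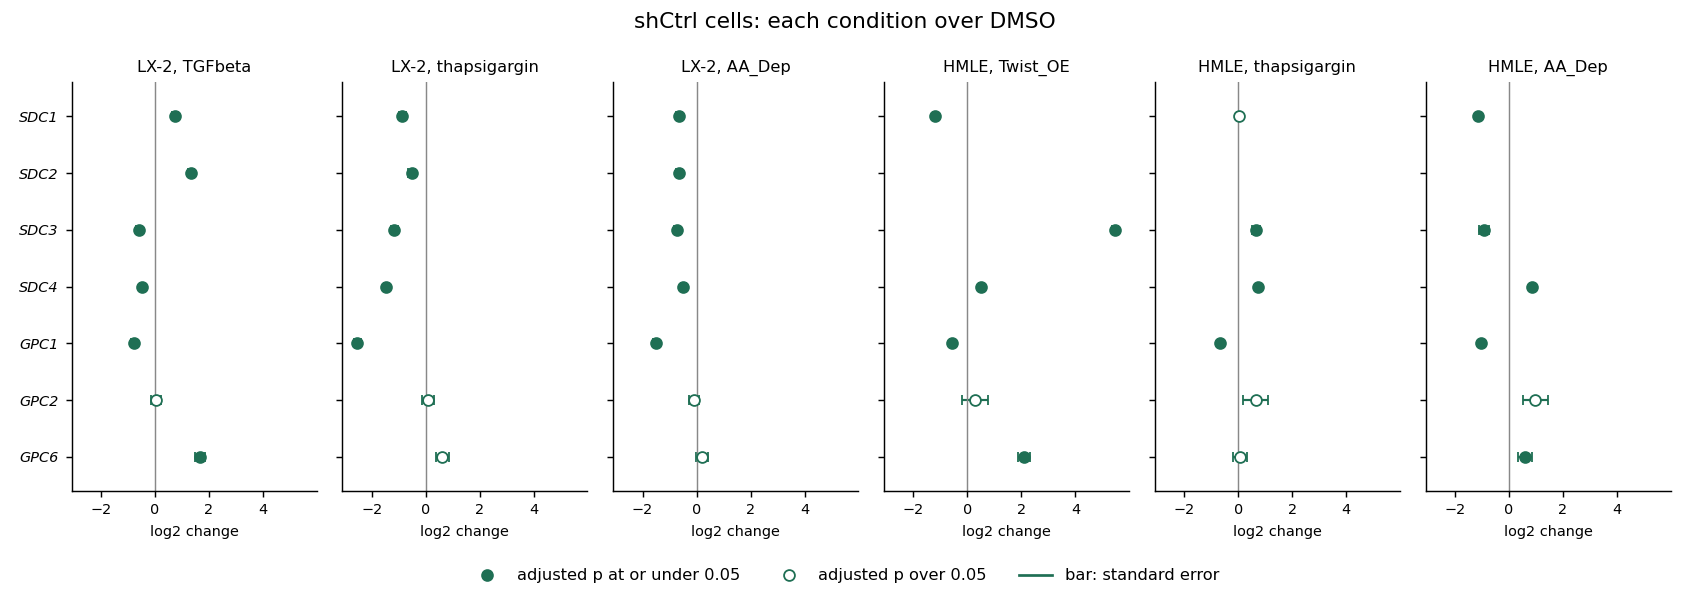
Log2 change of each condition over DMSO in shCtrl cells (x axes, 1 scale) for 7 genes, by line and condition; points are edgeR estimates, bars standard errors, and filled points passed an adjusted p of 0.05. SDC4 lies at -1.46 with thapsigargin in LX-2 and at 0.74 in HMLE, and SDC2 is not drawn for HMLE because DMSO held 1 count.

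GPC6, GPC2, SDC3 and GPC1 were lower in shATF4 than in shCtrl LX-2 cells both with TGFbeta and in DMSO. With TGFbeta, 6 of the 7 genes passed (1 higher and 5 lower), against 21.7% of all genes, and in DMSO 5 of 7 (1 higher and 4 lower), against 11.6%. GPC6 was at 5.48 and 4.12 CPM in shATF4 cells with TGFbeta, against 16.9 and 16.8 CPM in shCtrl cells, a log2 change of -1.82 ± 0.20 (adjusted p = 1.2e-05). In DMSO it was at 2.96 and 3.21 CPM in shATF4 cells, against 6.94 and 4.70 CPM in shCtrl cells (-0.93 ± 0.23, adjusted p = 0.017). GPC2 was at 2.26 and 2.53 CPM in shATF4 cells with TGFbeta, against 6.85 and 6.28 CPM in shCtrl cells (-1.47 ± 0.21), and at 4.83 and 4.02 CPM in DMSO, against 6.62 and 7.46 CPM (-0.69 ± 0.19). In each of these pairs of groups, both shATF4 libraries lay below both shCtrl libraries. GPC1 was at 245 and 254 CPM in shATF4 cells with TGFbeta, against 382 and 383 CPM in shCtrl cells (-0.63 ± 0.09), and at 562 and 548 CPM in DMSO, against 685 and 758 CPM (-0.39 ± 0.09). SDC3 was at 72.1 and 74.5 CPM in shATF4 cells with TGFbeta, against 104 and 103 CPM in shCtrl cells (-0.51 ± 0.10), and at 132 and 120 CPM in DMSO, against 165 and 181 CPM (-0.47 ± 0.10). Neither gene's libraries overlapped between the hairpins. The marker sums also differed in these libraries. The stellate and mesenchymal markers summed to 24700 to 25800 CPM in shATF4 cells with TGFbeta, against 44400 to 45200 CPM in shCtrl cells, and to 7960 to 8120 CPM in shATF4 DMSO, against 12800 to 13400 CPM in shCtrl DMSO. The epithelial markers summed to 255 to 277 CPM in shATF4 cells with TGFbeta, against 720 to 774 CPM in shCtrl cells, and to 239 to 240 CPM in shATF4 DMSO, against 470 to 538 CPM in shCtrl DMSO. Over the LX-2 libraries KRT18 reached 683 CPM and LAMB3 116 CPM. EPCAM, CDH1, KRT5 and TP63 each stayed at or under 0.495 CPM, so few genes make up the epithelial sum in this line. The part of the marker sums in the result was not tested. SDC1 fell with the hairpin in TGFbeta, to 187 and 203 CPM, against 303 and 293 CPM in shCtrl cells (-0.63 ± 0.11, adjusted p = 0.00069), and gave -0.13 ± 0.11 in DMSO. SDC2 was the exception among the genes that TGFbeta raised. It was at 77.9 and 79.3 CPM in shATF4 cells with TGFbeta, against 83.6 and 82.3 CPM in shCtrl cells (-0.09 ± 0.10, adjusted p = 0.57), and it was higher with shATF4 in DMSO, at 44.2 and 48.6 CPM against 33.8 and 38.1 CPM (0.36 ± 0.10, adjusted p = 0.036). SDC4 was at 174 and 176 CPM in shATF4 cells with TGFbeta, against 144 CPM in both shCtrl libraries (0.27 ± 0.08, adjusted p = 0.022), a call lost whichever of the 4 libraries was left out (adjusted p of 0.08 to 0.12).

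The calls in LX-2 DMSO rest on all 4 libraries. Leaving out any 1 of them lowered both the number of these genes that passed and the share of all genes that passed. Each such fit held 1 library in 1 of the groups. With all 16 LX-2 libraries, none of the DMSO calls passed and GPC6 was the 1 gene that did with TGFbeta (-1.83 ± 0.27, adjusted p = 0.0065). Of all genes tested, 0.242% then passed in DMSO and 1.29% with TGFbeta. The test of whether the TGFbeta response differs between the hairpins called none of the 7 genes, against 0.987% of all genes. By edgeR, 5 of them had an unadjusted p under 0.05 (SDC1, SDC2, SDC4, GPC2 and GPC6), and DESeq2 called none. The differences in response, shATF4 minus shCtrl, were -0.90 ± 0.31 for GPC6 (adjusted p = 0.29), -0.78 ± 0.28 for GPC2 (0.31), -0.50 ± 0.15 for SDC1 (0.21) and -0.45 ± 0.14 for SDC2 (0.23).

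Between the hairpins in LX-2 with thapsigargin, GPC1 alone passed, against 5.2% of all genes tested. It was at 230 and 222 CPM in shATF4 cells, against 132 CPM in the shCtrl library used and 136 CPM in the one left out, a log2 change of 0.80 ± 0.12 (adjusted p = 0.0008), and of 0.23 ± 0.25 with all 16 libraries (adjusted p = 0.52). The thapsigargin response of GPC1 was smaller in shATF4 than in shCtrl cells by 1.19 ± 0.15 (adjusted p = 0.00016), where 6.13% of all genes differed. With all 16 libraries that difference was 0.63 ± 0.36 (adjusted p = 0.38). The other 6 genes gave log2 changes of -0.35 (GPC2) to 0.11 (SDC1) between the hairpins under thapsigargin. With AA_Dep, edgeR called none of the 7, against 9.91% of all genes, 2 (SDC4 and GPC2) had an unadjusted p under 0.05, and DESeq2 called none. Without shCtrl AA_Dep replicate 1, 2 of the 7 passed, where 27.4% of all genes did, and without shCtrl AA_Dep replicate 2, 1 passed, where 8.67% of all genes did. GPC2 had 9.81 and 9.83 CPM in shATF4 cells with AA_Dep, against 7.82 and 5.60 CPM in shCtrl cells. Its response to AA_Dep differed between the hairpins by 1.15 ± 0.26 (adjusted p = 0.011), where 10.6% of all genes did. That call was lost without shATF4 DMSO replicate 2 (adjusted p = 0.067), without shCtrl DMSO replicate 2 (0.059) and with all 16 libraries. GPC6 followed with 1.0 ± 0.31 (adjusted p = 0.053).

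**Figure D4:**
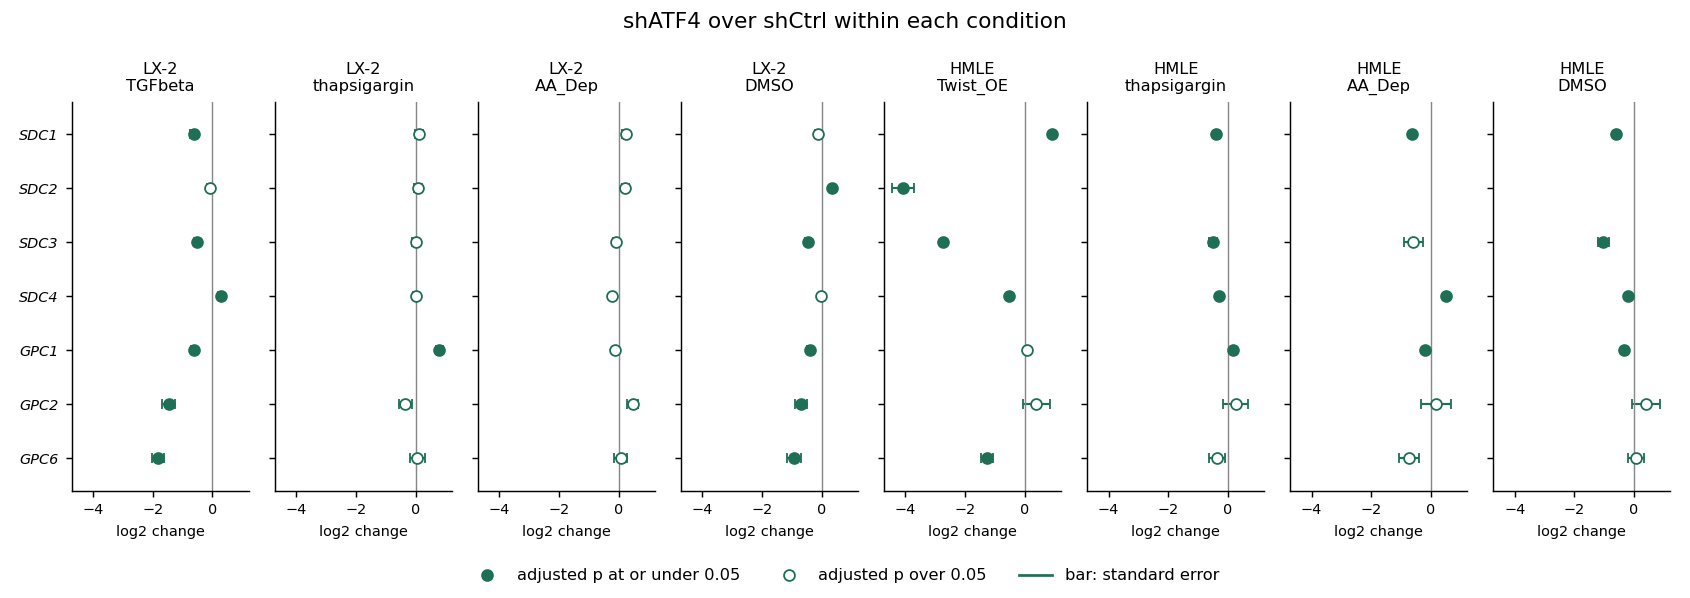
Log2 change of shATF4 over shCtrl (x axes, 1 scale) for 7 genes in each line and condition; points are edgeR estimates, bars standard errors, and filled points passed an adjusted p of 0.05. GPC6 lies at -1.82 in LX-2 with TGFbeta, and in HMLE with Twist_OE SDC2 lies at -4.09, SDC3 at -2.73 and SDC1 at 0.90; SDC2 is not drawn in the HMLE groups with at most 3 counts a library.

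In HMLE cells with Twist_OE, shATF4 cells had far less SDC2 and SDC3 and more SDC1 than shCtrl cells. SDC3 was at 17.4 and 20.4 CPM in shATF4 cells, against 123 and 124 CPM in shCtrl cells, a log2 change of -2.73 ± 0.08 (adjusted p = 1.6e-15). SDC2 had 14 and 6 counts in shATF4 cells, against 165 and 168 counts in shCtrl cells, a ratio of 0.0588 with a 95% counting interval of 0.0355 to 0.0923. GPC6 was at 3.99 and 4.52 CPM in shATF4 cells, against 11.3 and 8.84 CPM in shCtrl cells (-1.27 ± 0.20, adjusted p = 3.7e-05). SDC4 was at 311 and 314 CPM, against 450 and 439 CPM in shCtrl cells (-0.54 ± 0.05). SDC1 was at 394 and 420 CPM in shATF4 cells, against 217 and 212 CPM in shCtrl cells (0.90 ± 0.05, adjusted p = 1.2e-11). For all 5 the libraries of the hairpins did not overlap, and 5 of 7 genes passed, against 47.2% of all genes tested. GPC1 gave 0.06 ± 0.04 and GPC2 0.39 ± 0.44. The response to Twist_OE differed between the hairpins for 5 of the 7, against 29.7% of all genes, by 1.5 ± 0.07 for SDC1, -1.70 ± 0.22 for SDC3, -1.33 ± 0.33 for GPC6, 0.39 ± 0.06 for GPC1 and -0.34 ± 0.07 for SDC4 (shATF4 minus shCtrl). SDC2 missed the threshold (adjusted p = 0.053). The response of SDC3 in shATF4 cells remained upward, at 17.4 and 20.4 CPM with Twist_OE against 1.40 and 1.32 CPM in DMSO, and SDC2 stood at 10.3 times its DMSO level there (2.49 to 90.5, from 20 and 2 counts). TWIST1 itself differed between these groups, at 29.9 and 31.2 CPM in shATF4 cells and 119 and 137 CPM in shCtrl cells, and so did the marker sums. The epithelial markers summed to 7950 to 8130 CPM in shATF4 cells and 1380 to 1390 CPM in shCtrl cells, and the mesenchymal markers to 4270 to 4960 CPM in shATF4 cells and 16100 to 19800 CPM in shCtrl cells. The part of TWIST1 and of these markers in the result was not tested.

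In the other HMLE conditions SDC1 was lower in shATF4 than in shCtrl cells each time. SDC1 was at 323 and 329 CPM in shATF4 DMSO, against 502 and 495 CPM in shCtrl DMSO (-0.60 ± 0.05), at 364 and 376 CPM with thapsigargin, against 465 and 508 CPM (-0.41 ± 0.05), and at 153 CPM in the 1 AA_Dep library, against 249 and 241 CPM (-0.63 ± 0.06). SDC1 thus lay lower with shATF4 in 3 HMLE conditions and higher in Twist_OE. SDC3 was at 1.40 and 1.32 CPM in shATF4 DMSO, against 2.78 and 2.84 CPM in shCtrl DMSO (-1.03 ± 0.19, adjusted p = 0.00095). With thapsigargin it was at 3.36 and 2.80 CPM in shATF4 cells, against 4.43 and 4.19 CPM in shCtrl cells (-0.50 ± 0.14, adjusted p = 0.015), a call lost without shATF4 thapsigargin replicate 2 (adjusted p = 0.21) or shCtrl thapsigargin replicate 1 (0.076). SDC4 was at 272 and 280 CPM in shATF4 DMSO, against 317 and 323 CPM in shCtrl DMSO (-0.20 ± 0.05, adjusted p = 0.012), a call lost whichever of the 4 libraries was left out (adjusted p of 0.058 to 0.12). With thapsigargin it was at 412 and 442 CPM in shATF4 cells, against 492 and 543 CPM in shCtrl cells (-0.29 ± 0.05). With AA_Dep it was at 855 CPM in the shATF4 library, against 612 and 623 CPM in shCtrl cells, a log2 change of 0.51 ± 0.06 (adjusted p = 4.5e-06). Its response to AA_Dep was larger in shATF4 cells by 0.71 ± 0.08, where 5.09% of all genes tested differed. GPC1 was at 301 and 296 CPM in shATF4 DMSO, against 381 and 378 CPM in shCtrl DMSO (-0.33 ± 0.04), and at 257 and 267 CPM with thapsigargin, against 230 and 227 CPM (0.18 ± 0.04). The thapsigargin call was lost without shATF4 thapsigargin replicate 2 (adjusted p = 0.065). The thapsigargin response of GPC1 differed between the hairpins by 0.52 ± 0.06 (adjusted p = 3.8e-05), where 4.56% of all genes did. With AA_Dep GPC1 was at 172 CPM in the shATF4 library, against 199 and 207 CPM in shCtrl cells (-0.20 ± 0.06, adjusted p = 0.023), a call lost without shCtrl AA_Dep replicate 2 (adjusted p = 0.097). GPC2 lay between 0.406 and 1.25 CPM in all 15 HMLE libraries and passed in no comparison within the line, and GPC6 lay between 1.46 and 4.42 CPM in the libraries without Twist_OE. The genes that passed were 4 of 7 in DMSO, against 12.8% of all genes, 4 of 7 with thapsigargin, against 24.3%, and 3 of 7 with AA_Dep, against 16.9%.

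Lists of genes were made as the surroundings of these core proteins. They were the enzymes that build heparan sulfate, genes of its removal and of core protein shedding, and the partners of syndecan tails. Other heparan sulfate proteoglycans and heparin-binding growth factors with their receptors were also listed. The list of removal and shedding includes the inhibitor TIMP3, so its counts give no direction of removal. With TGFbeta in LX-2 shCtrl cells, 7 of 26 tested chain-synthesis genes were higher and 5 lower, with a median log2 change of 0.13, where 11.1% of all genes tested were higher and 11% lower. Of 9 genes of chain removal and shedding 4 were higher, TIMP3 among them, and 2 lower (median 0.13). Of 16 growth factors and receptors 5 were higher and 5 lower (median -0.24). None of the 12 cytoplasmic partners was higher and 5 were lower (median -0.21), and of the 7 other proteoglycans 5 were lower and none higher (median -0.39), where the median over all genes was 0. SULF2, which removes sulfate groups from heparan sulfate, was at a mean of 12.7 CPM with TGFbeta, against 1.53 CPM in DMSO (3.18 ± 0.29), while its relative SULF1 was at 6.28 CPM, against 13.3 CPM (-0.95 ± 0.24). TIMP3, an inhibitor of the metalloproteinases that shed syndecans, changed by 1.74 ± 0.07 and WNT5A by 1.72 ± 0.11. TGFBR3 (betaglycan) changed by -1.78 ± 0.22, SRGN (serglycin) by -1.59 ± 0.09 and EZR (ezrin, a link of membrane proteins to actin) by -0.74 ± 0.06. The sulfotransferase genes HS3ST3A1 (2.35 ± 0.27) and HS3ST3B1 (1.54 CPM with TGFbeta against 0.0537 CPM in DMSO) are near-identical in part, so their split of reads is uncertain. With shATF4 against shCtrl in TGFbeta, 10.9% of all genes tested were higher and 10.7% lower. Of 26 synthesis genes 1 was higher and 4 lower (median log2 change 0.09), of 9 removal genes 1 higher and 2 lower (-0.02), and of 12 partners 1 higher and 1 lower (0.03). Of 7 other proteoglycans 3 were higher and 2 lower (0.19), and of 16 growth factors and receptors 6 were higher and 4 lower (0.13). XYLT1, which starts the chain on the core protein, changed by -1.24 ± 0.09, NDST1, which begins its sulfation, by -0.91 ± 0.08, SULF2 by -1.35 ± 0.25 and COL18A1 by -1.03 ± 0.11. SRGN changed by 1.18 ± 0.09 and TGFBR3 by 1.48 ± 0.23.

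With Twist_OE in HMLE shCtrl cells, 28.3% of all genes tested were higher and 28.9% lower than in DMSO. Of the lists, 16 of 26 tested synthesis genes were higher and 5 lower (median log2 change 0.88), 7 of 9 removal genes higher and 1 lower (0.62), 4 of 12 partners higher and 7 lower (-0.39), 5 of 7 other proteoglycans higher and 1 lower (2.03), and 7 of 13 growth factors and receptors higher and 4 lower (0.34), where the median over all genes was 0. PAPSS2, which makes the sulfate donor, was at a mean of 36.5 CPM with Twist_OE, against 2.20 CPM in DMSO (4.06 ± 0.13). HS3ST1 was at 1.63 CPM, against 23.4 CPM (-3.84 ± 0.16). Of the partners, more of which were lower than higher, PRKCA, a kinase that binds the SDC4 tail, was at 104 CPM, against 11.6 CPM (3.17 ± 0.11). GIPC1 was at 150 CPM, against 316 CPM (-1.06 ± 0.05), and TIAM1 at 16.9 CPM, against 35.2 CPM (-1.05 ± 0.09). SRGN was at 114 CPM, against 0.507 CPM, and COL18A1 at 174 CPM, against 29.7 CPM. Of the receptors, FGFR1 was at 209 CPM with Twist_OE, against 4.99 CPM in DMSO (5.39 ± 0.10), and FGFR2 at 5.61 CPM, against 45.5 CPM (-3.01 ± 0.09). With shATF4 against shCtrl in Twist_OE, 23.3% of all genes tested were higher and 23.9% lower. Of the lists, 5 of 26 synthesis genes were higher and 10 lower (median -0.10), 2 of 9 removal genes higher and 3 lower (0.06), 6 of 12 partners higher and 2 lower (0.17), 1 of 7 proteoglycans higher and 4 lower (-0.90), and 4 of 13 growth factors and receptors higher and 7 lower (-0.38), where the median over all genes was -0.02. FGFR1 was at 30.1 CPM in shATF4 cells, against 209 CPM in shCtrl cells, FGFR2 at 51.5 CPM, against 5.61 CPM, and HS3ST1 at 18.7 CPM, against 1.63 CPM. Of the partners, PRKCA was at 24.7 CPM in shATF4 cells, against 104 CPM in shCtrl cells, and GIPC1 at 266 CPM, against 150 CPM. TWIST1 differed between these libraries as given above.

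The genes most like each member over the 8 group means of a line (Pearson r of log2(CPM + 1), given as a description; the groups share hairpins, treatments and library preparation) were named by rank. In LX-2 they were BMP1 (r = 0.983) and MRC2 (0.969) for SDC1, P4HA2 (0.982) and RHOB (0.981) for SDC2, CAVIN1 (0.978) and SYNC (0.97) for SDC3, and PLEKHO2 (0.987) and APMAP (0.972) for SDC4. For the glypicans they were MYLK and CRISPLD2 (0.989 each) for GPC1, AP1G2 (0.973) and NLRP1 (0.96) for GPC2, and LANCL2 (0.939) and ITPKC (0.915) for GPC6. In HMLE they were POR (0.956) and MRPS33 (0.951) for SDC1, PTPRM (0.996) and FOXC2 (0.993) for SDC3, FEM1C (0.983) and TFPT (0.982) for SDC4, and RBM38 (0.972) and SLC25A44 (0.971) for GPC1. SDC2, GPC2 and GPC6 were below a mean of 5 CPM in HMLE and were not searched there. RefSeq places GPC1-AS1 and MIR149 over GPC1, and GPC6-AS1 and GPC6-AS2 over GPC6. Whether the counting used strand is not given in the sources used here, so reads of these pairs may be shared, and GPC1-AS1 reached at most 1.98 CPM in any library and GPC6-AS2 at most 0.112 CPM.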

How the data were processed

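RNA sequencing of 2 cell lines was used; 9 ChIP samples were not analysed here. Per the labels, total RNA was extracted with a Qiagen kit and made into libraries with a SMARTer mRNA kit. The authors deposited whole-number counts per Ensembl gene, 1 file per sample. The submitters' processing notes name hg19 and hg38 as builds, and featureCounts, STAR, Bowtie2, cutadapt, DESeq and HOMER as tools; which of these served the RNA data is not given in the sources used here. Of 58735 genes, 58207 had a symbol.

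Counts were fitted by line with edgeR 4.0.16 (R 4.3.3): filterByExpr, TMM, group as the only term, quasi-likelihood F tests, Benjamini-Hochberg adjustment over all genes (18649 in LX-2, 17940 in HMLE, 20308 in the fit of both lines), threshold 0.05. SE is the log2 change divided by the root of F. The LX-2 fit held 15 libraries and the HMLE fit 15. The lone LX-2 shCtrl thapsigargin library and the lone HMLE shATF4 AA_Dep library were assumed to vary like the other groups. CPM are counts divided by the library total, times 1000000. Intervals at 95% and the floor of 3 counts cover counting error only. Alternatives were DESeq2 1.42.0, its size factors, no filter, a replicate block, all 16 LX-2 libraries, and leaving out each library.

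The rule for named genes took every member, ATF4, TWIST1 and the 2 most similar genes per line where the member averaged at least 5 CPM. For each list it took up to 3 called genes with the largest change, and only some of these are given in the text. The choice among them followed no stated rule. Some well-expressed ones are not given, and HS3ST3B1 and SRGN are given although 1 of their groups was near 0. The members and lists were chosen with earlier results of these data known. The procedure was tested on simulated data.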

Additional observations from a re-analysis of the deposited data

Results flagged for a closer look

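Each of these results is a difference between 2 responses that passed its own test (edgeR quasi-likelihood test, adjusted over all genes). Between the hairpins (shATF4 minus shCtrl), the Twist_OE response of HMLE differed by 1.5 ± 0.07 for SDC1, -1.70 ± 0.22 for SDC3, -1.33 ± 0.33 for GPC6, 0.39 ± 0.06 for GPC1 and -0.34 ± 0.07 for SDC4 (log2, ± SE). TWIST1 differed in the same direction as SDC3, GPC6 and SDC4, by -1.66 ± 0.17, and its part was not tested. The thapsigargin response of GPC1 differed by 1.19 ± 0.15 in LX-2, where 1 shCtrl library was used (0.63 with both, adjusted p = 0.38), and by 0.52 ± 0.06 in HMLE. The AA_Dep response differed by 1.15 ± 0.26 for GPC2 in LX-2, a call lost without either of 2 libraries (adjusted p of 0.059 and 0.067) and with all 16 libraries, and by 0.71 ± 0.08 for SDC4 in HMLE, where 1 shATF4 library was used.

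Between the lines (LX-2 minus HMLE, shCtrl), the thapsigargin response differed by -2.22 ± 0.11 for SDC4, -1.88 ± 0.12 for GPC1, -1.86 ± 0.20 for SDC3 and -0.89 ± 0.14 for SDC1, the last of these lost with both LX-2 thapsigargin libraries. The AA_Dep response differed by -1.35 ± 0.09 for SDC4, -0.53 ± 0.11 for GPC1, 0.45 ± 0.13 for SDC1 and -1.10 ± 0.44 for GPC2. With all 16 LX-2 libraries the calls of GPC1 (adjusted p = 0.16), SDC1 (0.46) and GPC2 (0.53) for AA_Dep were lost. SDC1 also lost its call without either of 2 libraries. GPC2 lost its call without any 1 of 6 libraries (adjusted p of 0.052 to 0.19), in DESeq2 (0.063), without the filter on low counts (0.072) and with the replicate block (0.056).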

How the results depend on the processing

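Of the 82 calls of single genes, 82 held with DESeq2 size factors, 80 without the filter on low counts, 80 in DESeq2 and 81 with the replicate number as a block. Same-numbered deviations correlated above 0.1 in 6 of 21 pairs of groups in LX-2, with 8 under -0.1 (r from -0.618 to 0.493, median -0.0621). In HMLE they did so in 14 of 21, with 1 under -0.1 (median r 0.152). In LX-2 same-numbered samples thus deviated together in some pairs of groups and oppositely in others. Whether LX-2 samples share deviations in an order other than that of their numbers was not tested. In HMLE same-numbered samples mostly deviated together, weakly. The labels name no pairing, so the block result (which lost GPC2 in the AA_Dep responses of the lines, adjusted p = 0.056) is only a description. With all 16 LX-2 libraries, 20 of 45 calls held, 24 were lost, and SDC1 in LX-2 shCtrl thapsigargin against DMSO turned to 0.03. The genes that passed were then 2 for TGFbeta and 2 for AA_Dep in shCtrl cells, 1 for shATF4 against shCtrl with TGFbeta, 0 in DMSO and 0 with thapsigargin, 0 for the thapsigargin and 0 for the AA_Dep response between hairpins, and 1 for the AA_Dep response between lines. The added library widens the spread of the line, as given in the report. The AA_Dep response of LX-2 between hairpins gave 2 genes with DESeq2, with its size factors and without the filter, and the TGFbeta response gave 1 without the filter; the cause was not tested. The Twist_OE response of HMLE between hairpins gave 6 genes in place of 5 with DESeq2, with the replicate block and without the filter (4 of them lower, against 3). Leaving out each library in turn, 327 of 366 calls held and 39 were lost, none turning sign. The number of genes that passed ranged from 0 to 4 for the AA_Dep response of LX-2 between hairpins, 0 to 2 for shATF4 against shCtrl in LX-2 AA_Dep, 0 to 3 in LX-2 DMSO, 1 to 2 for the thapsigargin response of LX-2 between hairpins, 1 to 2 for that of HMLE, and 2 to 4 for shATF4 against shCtrl in HMLE thapsigargin. The upper values came without LX-2 shCtrl AA_Dep replicate 1 (4 for the AA_Dep response and 2 for the hairpin in AA_Dep), LX-2 shATF4 thapsigargin replicate 2 and HMLE shCtrl thapsigargin replicate 2. Leaving out the only library of LX-2 shCtrl thapsigargin or of HMLE shATF4 AA_Dep was not run. Depth limits SDC2 and GPC2 in HMLE, where libraries held 0 to 3 and 9 to 24 counts outside Twist_OE, and GPC4 everywhere.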
